A study of Arabidopsis thaliana with 24 samples.

Results

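NRT2.5 (AT1G12940) and AT2G26690 (NRT1.4, also named NPF6.2) are genes of membrane transporters for nitrate. They were chosen by name with earlier results of these data known. Each has 1 probe set, and they make up 2 of the 22746 probe sets tested. Arabidopsis thaliana plants of the Columbia accession, all wild type, were subirrigated once a week with 25 ml per pot of a fed solution or of water, from week 1 to week 5 after sowing. Fed plants received the oxidized form of glutathione, GSSG, at 1 mM, its reduced form, GSH, at 2 mM, or ammonium nitrate (NH4NO3) at 3 mM, and the controls received water. Whole aerial parts, shoot apex included, were collected 3 weeks after sowing (3W), and blades of fully expanded leaves 4 weeks (4W) and 5 weeks (5W) after sowing. This gave 12 groups of 2 Affymetrix arrays, 24 arrays in all. GSSG is a pair of glutathione molecules joined by a disulfide bond, so its dose equals that of GSH in glutathione units. In the sample titles the 2 replicates of a group carry different further numbers, whose meaning is not given. Nothing in the labels tells whether the 2 replicates of a group were grown in different pots. The p-values therefore reflect the spread between the 2 arrays within a group, pooled over all 12 groups, and that spread may be technical.

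Plants take up nitrate, move it between organs and store it through several transporter families. NRT2.5 belongs to the NRT2 family of high-affinity transporters. In Arabidopsis its transcript accumulates during long nitrogen starvation in roots and shoots, and in leaves it has been located to the minor veins. AT2G26690 belongs to the large NPF family, whose members carry nitrate, peptides, hormones or glucosinolates. It encodes a low-affinity nitrate transporter known for the petiole and the leaf midrib, where it takes part in nitrate storage.

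The deposited value is a signal in linear array units, with every array scaled by its submitters to the same trimmed mean, and the file used here carries no detection call. Array medians lay between 154 and 192. The ratio of the 3' to the 5' actin probe sets was 4.29 to 4.81 on the 4W replicate 2 arrays and 2.65 to 3.80 on the other arrays. Changes are given on the log2(signal + 16) scale, which understates the change of dim probe sets, and NRT2.5 was dim in most groups: its mean of 5.84 over all arrays lay under the 40th percentile of probe sets, 6.72. AT2G26690 had a mean of 9.24 on that scale. A change was called where its adjusted p, from limma over all 22746 probe sets, was under 0.05. In leaf or shoot RNA, fewer cells of a type and less RNA per cell cannot be told apart.

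NRT2.5 was low in 3-week shoots whatever the watering. Its signal there was 28.1 and 16.1 with GSSG, 18.8 and 31.7 with GSH, 55.8 and 41.4 with NH4NO3, and 53.9 and 14.6 with water. The arrays of each fed group overlapped those of water. In 4-week blades the signals were 45.5 and 14.0 with GSSG, 5.69 and 34.2 with GSH, 15.9 and 6.13 with NH4NO3, and 31.0 and 68.8 with water. Both NH4NO3 arrays lay below both water arrays at that harvest, as they did for 17.4% of all probe sets tested, while GSSG and GSH overlapped water.

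The groups stood apart in 5-week blades. NRT2.5 read 85.5 and 103.8 with GSSG, 71.3 and 104.2 with GSH, 19.5 and 36.4 with NH4NO3, and 218.9 and 208.6 with water. The water arrays were above every other array of the series, and the GSSG and GSH arrays overlapped each other. Over all probe sets tested, the fed arrays of a solution lay wholly below the 5W water arrays in 21.9% with GSSG, 22.8% with GSH and 24.4% with NH4NO3, so that separation alone is common. Group means at 5W were 94.6 ± 12.9 with GSSG, 87.7 ± 23.3 with GSH, 28.0 ± 11.9 with NH4NO3 and 214 ± 7.25 with water (SD, n = 2 each).

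AT2G26690 had its highest group means in 3-week shoots, where the signals were 803.5 and 1066 for GSSG, 781.3 and 1148 for GSH, 1040 and 1188 for NH4NO3, and 853.8 and 1176 for water. All fed groups overlapped water there. In 4-week blades it read 610.8 and 905.1 with GSSG, 499.3 and 529.4 with GSH, 633.6 and 711.4 with NH4NO3, and 452.9 and 626.9 with water. The NH4NO3 arrays were just above the water arrays, as they were for 13.2% of all probe sets, and the GSSG and GSH arrays overlapped them.

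In 5-week blades AT2G26690 read 312.8 and 297.0 with GSSG, 571.0 and 279.7 with GSH, 649.1 and 544.4 with NH4NO3, and 179.0 and 146.1 with water. Every fed array was above both water arrays, the reverse of NRT2.5. Over all probe sets, 17.1% lay wholly above water with GSSG, 20.2% with GSH and 17.4% with NH4NO3. The 2 GSH arrays were far apart, replicate 1 near the NH4NO3 level and replicate 2 just under the GSSG level. Group means at 5W were 305 ± 11.2 with GSSG, 425 ± 206 with GSH, 597 ± 74.0 with NH4NO3 and 163 ± 23.3 with water (SD, n = 2 each).

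**Figure D1:**
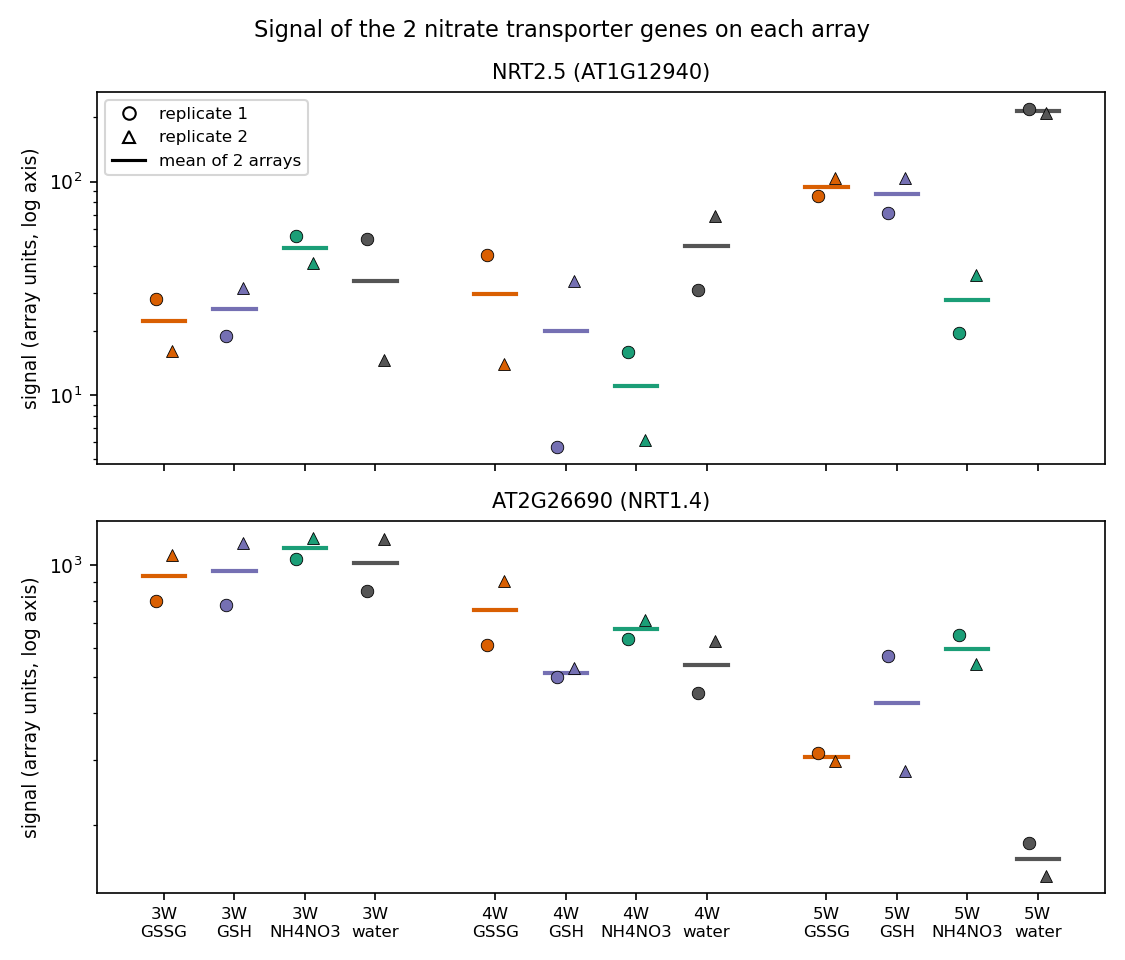
Signal of NRT2.5 (upper panel) and AT2G26690 (lower panel) on each of the 24 arrays in array units on a log axis, with circles for replicate 1, triangles for replicate 2 and a line at the mean of the 2 arrays. The 5W water arrays are the highest for NRT2.5 (218.9 and 208.6) and the lowest for AT2G26690 (179.0 and 146.1).

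Ranked by mean signal, NRT2.5 was highest in 5W water, followed by 5W GSSG, 5W GSH and 4W water. Of the 11 neighbouring pairs of groups in that order, 9 had overlapping arrays. The 5W water group did not overlap the next, 5W GSSG, and 5W GSH did not overlap 4W water. The lowest mean, 11.0 ± 6.91 (SD, n = 2), was that of 4W NH4NO3. For AT2G26690 the order ran from the 3W groups, with 3W NH4NO3 at the top (1114 ± 105), through the 4W groups with 5W NH4NO3 among them, to 5W GSH, 5W GSSG and 5W water. There 10 of 11 neighbouring pairs overlapped, and the exception was 5W GSSG against 5W water at the bottom.

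The question put by the watering comparison is how each fed solution altered transcript levels relative to plants given water. All fed groups of a harvest were set against the same 2 water arrays, so comparisons at one harvest are not independent of each other. In 3-week shoots neither gene was called with any solution. There 0.0% of probe sets were called with GSSG, 0.0% with GSH and 0.0% with NH4NO3, while 599, 506 and 611 probe sets in that order had an unadjusted p under 0.05. The log2 changes of NRT2.5 were -0.30 with GSSG, -0.18 with GSH and 0.47 with NH4NO3, each with a standard error of 0.50. Those of AT2G26690 were -0.11, -0.08 and 0.15 in the same order, each with a standard error of 0.28. The 95% intervals of the AT2G26690 changes at 3W reached no lower than -0.69 and no higher than 0.72.

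In 4-week blades, again, neither gene was called. The background share of called probe sets was 0.0484% with GSSG, 0.0044% with GSH and 0.0132% with NH4NO3. NRT2.5 had log2 changes of -0.55 with GSSG (adjusted p = 0.772), -0.94 with GSH (adjusted p = 0.675) and -1.25 with NH4NO3 (adjusted p = 0.682). The 95% interval of the NH4NO3 change ran from -2.30 to -0.20. AT2G26690 had 0.47 with GSSG (adjusted p = 0.604), -0.05 with GSH (adjusted p = 0.982) and 0.32 with NH4NO3 (adjusted p = 0.906). The near-zero GSH value turned to 0.05 when arrays were centred on their medians.

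In 5-week blades NRT2.5, the starvation-induced high-affinity transporter, fell with NH4NO3, and AT2G26690, the low-affinity storage transporter, rose with NH4NO3 and with GSH. The share of all probe sets called was 0.22% with GSSG, 1.49% with GSH and 2.22% with NH4NO3. Of the 2 genes, 0 were called with GSSG, 1 with GSH and 2 with NH4NO3. Both were chosen with earlier results known, so these counts are no test against those shares. NRT2.5 fell by 2.41 ± 0.50 (SE) on the log2(signal + 16) scale with NH4NO3 (95% interval -3.46 to -1.37, adjusted p = 0.0115). With GSSG its change was -1.06 (95% interval -2.11 to -0.01, adjusted p = 0.715). With GSH it was -1.17 (95% interval -2.21 to -0.12, adjusted p = 0.339). Neither glutathione change passed the threshold.

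AT2G26690 rose by 1.78 ± 0.28 (SE) with NH4NO3 at 5W (95% interval 1.2 to 2.36, adjusted p = 0.00101). Its mean signal there was 3.67 times that of water. With GSH it rose by 1.23 ± 0.28 (95% interval 0.65 to 1.81, adjusted p = 0.0272), a mean signal 2.62 times that of water. With GSSG the change was 0.85 ± 0.28 (95% interval 0.27 to 1.43, adjusted p = 0.409), and the mean signal was 1.88 times that of water.

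These calls did not rest equally on the arrays. The NH4NO3 call of AT2G26690 held without any single array of the 4 compared, at log2 changes of 1.65 to 1.91 (adjusted p up to 0.0287). Its GSH call was lost without 5W GSH replicate 1 (0.73, adjusted p = 0.492), without water replicate 1 (1.36, adjusted p = 0.0687) and without water replicate 2 (1.1, adjusted p = 0.271). The NH4NO3 call of NRT2.5 was lost without water replicate 1 (-2.38, adjusted p = 0.0638), water replicate 2 (-2.44, adjusted p = 0.0952) or NH4NO3 replicate 1 (-2.13, adjusted p = 0.159). With a pseudocount of 1 in place of 16 it was -2.95 (adjusted p = 0.0766). Fitted to only the arrays compared, NRT2.5 kept its change of -2.41 at an adjusted p of 0.0555, and the GSH change of AT2G26690 had an adjusted p of 0.271.

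**Figure D2:**
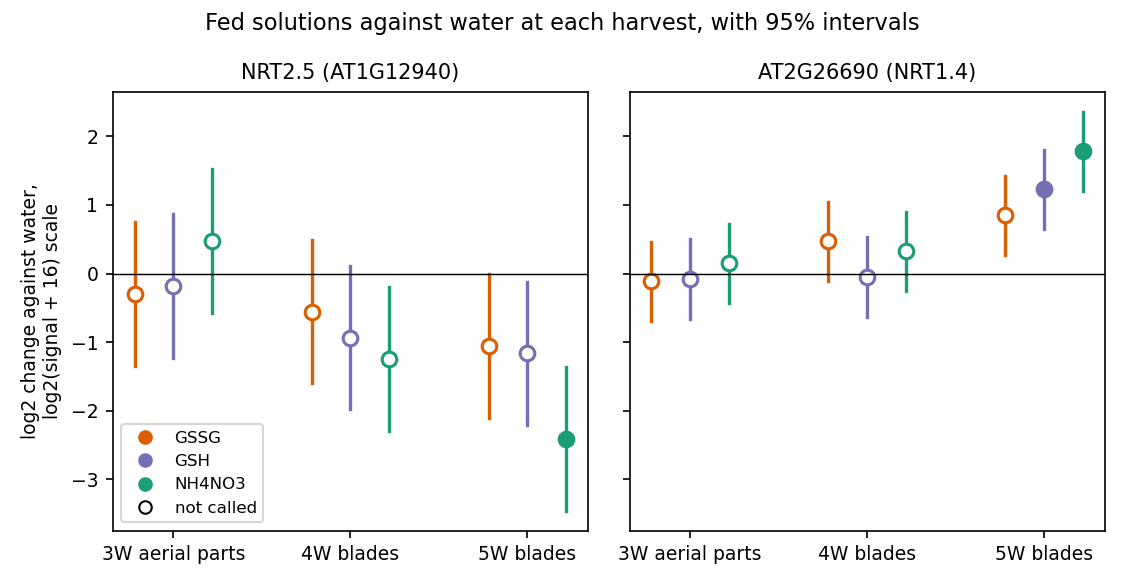
Change of NRT2.5 (left) and AT2G26690 (right) with each fed solution against water at 3W, 4W and 5W, on the log2(signal + 16) scale, with 95% intervals; filled points were called. The filled points are all at 5W: NRT2.5 with NH4NO3 at -2.41, and AT2G26690 with GSH at 1.23 and with NH4NO3 at 1.78.

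Markers of other states and tissues were measured in part. For leaf senescence, 2 of 7 listed markers had a named probe set, the transcription factor genes WRKY53 (AT4G23810) and WRKY6 (AT1G62300). Their summed signal in 5-week blades was 271 to 401 with GSSG, 300 to 334 with GSH, 768 to 774 with NH4NO3 and 305 to 369 with water. It was thus higher on the NH4NO3 arrays, where WRKY53 had a log2 change of 1.33 (adjusted p = 0.0765) and WRKY6 of 0.47 (adjusted p = 0.684), and its part in the results on the nitrate transporter genes was not tested. The phloem marker SWEET11 (AT3G48740), a sucrose exporter gene and the 1 of 6 listed that was measured, summed to 11000 to 12200 with GSSG, 11200 to 12700 with GSH, 11500 to 12600 with NH4NO3 and 12800 to 13800 with water. The mesophyll marker RCA (AT2G39730), Rubisco activase and the 1 of 5 measured, read 27500 to 31200 with GSSG, 28500 to 30000 with GSH, 24900 to 35200 with NH4NO3 and 35000 to 35500 with water. The part of either marker in the results was not tested. No measured marker was at 0. The actin ratio at 5W was 2.65 to 3.11 on fed arrays and 2.98 to 3.06 on water arrays.

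Averaged over the 3 harvests with equal weight, AT2G26690 rose with NH4NO3 by 0.75 ± 0.16 (95% interval 0.42 to 1.08, adjusted p = 0.0357). Its changes by harvest were 0.15 at 3W, 0.32 at 4W and 1.78 at 5W, and only the last was called. The mean joins whole aerial parts at 3W with blades at 4W and 5W. NRT2.5 was not called with any solution, at -0.64 with GSSG, -0.76 with GSH and -1.06 with NH4NO3 (adjusted p = 0.668, 0.41 and 0.134). AT2G26690 had 0.40 with GSSG (adjusted p = 0.62) and 0.37 with GSH (adjusted p = 0.504). Background shares were 0.0044% with GSSG, 0.259% with GSH and 0.484% with NH4NO3. The mean call of AT2G26690 was lost in 9 of the 12 fits that left out 1 array, at 0.67 to 0.83 (adjusted p up to 0.154), and held without 3W water replicate 2, 4W water replicate 2 or 5W NH4NO3 replicate 2.

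Set against each other at one harvest, the fed solutions gave no called difference in either gene, in 9 comparisons each. At 3W the background was 0.0% for GSSG against GSH, 0.0% for GSSG against NH4NO3 and 0.0044% for GSH against NH4NO3. In 4-week blades it was 0.00879%, 0.211% and 0.185% in that order, and in 5-week blades 0.0%, 0.0879% and 0.044%. For the 3 comparisons at 0.0%, the probe sets with an unadjusted p under 0.05 numbered 660 (GSSG against GSH, 3W), 729 (GSSG against NH4NO3, 3W) and 893 (GSSG against GSH, 5W).

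GSSG and GSH, the oxidized and the reduced form of the same tripeptide, gave NRT2.5 a difference of 0.11 at 5W (95% interval -0.94 to 1.15). For AT2G26690 the same difference was -0.38 (95% interval -0.95 to 0.20). At 4W the differences were 0.38 (95% interval -0.67 to 1.43) for NRT2.5 and 0.52 (95% interval -0.06 to 1.1) for AT2G26690. At 3W they were -0.12 (95% interval -1.16 to 0.93) and -0.03 (95% interval -0.61 to 0.54). These intervals leave room for a difference of either sign at each harvest.

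Against NH4NO3 at 5W, the difference in NRT2.5 was 1.35 with GSSG (95% interval 0.31 to 2.4, adjusted p = 0.644) and 1.25 with GSH (95% interval 0.20 to 2.29, adjusted p = 0.719). AT2G26690 differed by -0.93 with GSSG (95% interval -1.51 to -0.35, adjusted p = 0.392) and by -0.55 with GSH (95% interval -1.13 to 0.03, adjusted p = 0.811). In 3 of these 4 comparisons the interval of the single gene lay on one side of 0, and none passed over all probe sets. The doses differ in mM, and each solution supplied 6 mM nitrogen, counted from the formula of its compound.

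In plants given water, NRT2.5 was higher and AT2G26690 lower in 5-week than in 4-week blades. NRT2.5 rose by 1.86 ± 0.50 with water (95% interval 0.82 to 2.91, adjusted p = 0.0204). Its changes were 1.36 with GSSG (adjusted p = 0.0823), 1.63 with GSH (adjusted p = 0.068) and 0.70 with NH4NO3 (adjusted p = 0.537). AT2G26690 fell by 1.63 ± 0.28 with water (adjusted p = 0.000691) and by 1.24 ± 0.28 with GSSG (adjusted p = 0.00565). Its changes were -0.35 with GSH (adjusted p = 0.551) and -0.17 with NH4NO3 (adjusted p = 0.834). The mean signal of AT2G26690 in 5-week blades was 0.402 times that in 4-week blades with GSSG, 0.827 times with GSH, 0.887 times with NH4NO3 and 0.301 times with water.

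Between these harvests plant age and the number of weekly waterings changed together and cannot be told apart. On the 4W replicate 2 arrays the actin ratio was 4.29 to 4.81, and on the 4W replicate 1 arrays 3.08 to 3.71. At 5W it was 2.65 to 3.11 on fed and 2.98 to 3.06 on water arrays. AT2G26690 read higher on 4W replicate 2 than on replicate 1 in every watering, NRT2.5 only with GSH and water. The part of that ratio in these changes was not tested. The background share for 5W against 4W was 12.5% with GSSG, 4.34% with GSH, 2.43% with NH4NO3 and 10.6% with water. Set beside those shares, the genes called were 1 with GSSG, 0 with GSH, 0 with NH4NO3 and 2 with water. Given how the genes were chosen, these counts are no test either. The water call of AT2G26690 held without any single array, at -1.85 to -1.40. That of NRT2.5 was lost without 4W water replicate 1 (1.44, adjusted p = 0.168), 5W water replicate 1 (1.83, adjusted p = 0.0832) or 5W water replicate 2 (1.9, adjusted p = 0.106). The GSSG call of AT2G26690 was lost without 4W GSSG replicate 2 (-0.97, adjusted p = 0.0847).

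Blades at 4W were also set against 3-week aerial parts, where plant age and organ cannot be told apart. The 4W replicate 2 arrays, with the highest actin ratios, entered here too, and the part of that ratio was not tested. AT2G26690 fell by 0.89 ± 0.28 with water (adjusted p = 0.0146), by 0.86 ± 0.28 with GSH (adjusted p = 0.0185) and by 0.71 ± 0.28 with NH4NO3 (adjusted p = 0.0490). With GSSG the change was -0.31 (adjusted p = 0.434). NRT2.5 was not called, at 0.19 with GSSG, -0.30 with GSH, -1.27 with NH4NO3 (adjusted p = 0.0529) and 0.45 with water. The background share was large in each of these comparisons, 35.7% with GSSG, 36.0% with GSH, 37.0% with NH4NO3 and 37.7% with water.

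Centring on array medians moved the median of all probe sets between these organs to between 0.147 and 0.202. After it AT2G26690 had -0.61 with GSH (adjusted p = 0.0757) and -0.53 with NH4NO3 (adjusted p = 0.125). The calls also rested on single arrays: with water the call was lost without 3W water replicate 2 or 4W water replicate 1, with GSH without any array but 3W GSH replicate 1, and with NH4NO3 without any of the 4. Over all fits without 1 array, the change was -1.12 to -0.66 with water, -1.14 to -0.59 with GSH and -0.81 to -0.62 with NH4NO3. Root markers, 3 of 6 measured, summed to between 3480 and 6520 on the 3W arrays and between 22.3 and 120 on the blade arrays. PYK10 (AT3G09260), a beta-glucosidase gene of roots and seedlings, made up nearly all of the 3W sum and had a change of -7.65 with water (adjusted p = 1.97e-10). The other root markers, RCH1 and EXPA7, were dim and were not called in any watering. With water, mean signals at 3W and 4W were 4.59 and 19.5 for RCH1 and 15.7 and 13.2 for EXPA7. Between these harvests the phloem marker SWEET11 rose by 6.57 to 7.34 and the mesophyll marker RCA by 1.23 to 1.71. The senescence markers WRKY53 and WRKY6 had a median change of 0.46 with GSSG, 1.73 with GSH, 1.27 with NH4NO3 and 1.29 with water. The shoot meristem marker CLV3 (AT2G27250), the 1 of 7 listed that was measured, was dim. Its changes were -0.87 to -0.31, none called. The part of any such tissue or state in the 3W levels was not tested.

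**Figure D3:**
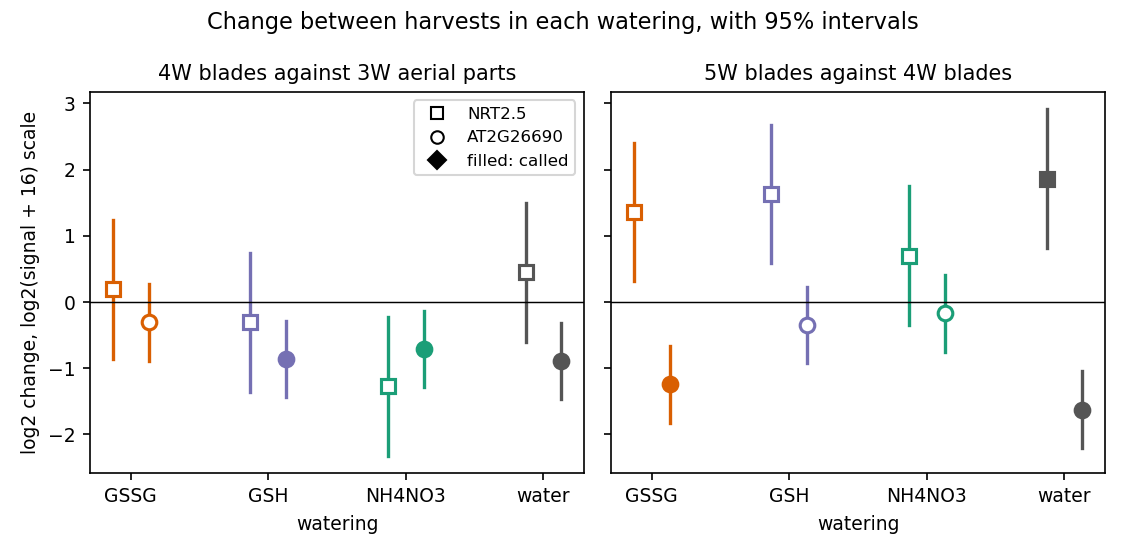
Change of NRT2.5 (squares) and AT2G26690 (circles) between harvests in each watering, 4W against 3W on the left and 5W against 4W on the right, on the log2(signal + 16) scale with 95% intervals; filled points were called. In plants given water at 5W against 4W, NRT2.5 is at 1.86 and AT2G26690 at -1.63.

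Whether the effect of a solution differed between harvests was tested directly. In the fit without a replicate block, no such difference was called for either gene. For AT2G26690 the effect at 5W minus that at 4W was 1.46 with NH4NO3 (95% interval 0.64 to 2.27, adjusted p = 0.188), 1.28 with GSH (95% interval 0.46 to 2.1, adjusted p = 0.303) and 0.38 with GSSG (adjusted p = 0.911). For NRT2.5 these differences were -1.17 with NH4NO3 (adjusted p = 0.782), -0.23 with GSH (adjusted p = 0.964) and -0.50 with GSSG (adjusted p = 0.944). The background share of these 3 tests was 0.171% with NH4NO3, 0.154% with GSH and 0.00879% with GSSG.

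Between 5W and 3W the effect of NH4NO3 differed by -2.88 for NRT2.5 (95% interval -4.37 to -1.40, adjusted p = 0.0977) and by 1.63 for AT2G26690 (adjusted p = 0.0883). Effects at 5W are those in blades and effects at 3W those in whole aerial parts, so harvest and organ cannot be told apart here. That of GSH differed by -0.98 for NRT2.5 (adjusted p = 0.863) and by 1.31 for AT2G26690 (adjusted p = 0.315). That of GSSG differed by -0.76 (adjusted p = 0.984) and 0.96 (adjusted p = 0.97). Background shares were 0.317% with NH4NO3, 0.185% with GSH and 0.022% with GSSG.

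Across group means of log2(signal + 16) the 2 genes ran opposite to each other. Pearson's r was -0.777 over the 12 groups, -0.918 over the 8 leaf blade groups and -0.972 over the 4 groups at 5W. These are descriptions of means that share arrays, and no r was computed for 3W or 4W alone. At 3W the means of both genes rose in the order GSSG, GSH, water, NH4NO3, though no change was called there. They were 5.23, 5.35, 5.53 and 6.00 for NRT2.5 and 9.88, 9.91, 9.99 and 10.14 for AT2G26690. At 4W the orders of the 2 genes were neither the same nor reversed. Within a group the 2 replicates did not always follow the same slope: in 5W GSH, replicate 1 had less NRT2.5 and more AT2G26690 than replicate 2, while in 4W water replicate 2 had more of both.

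**Figure D4:**
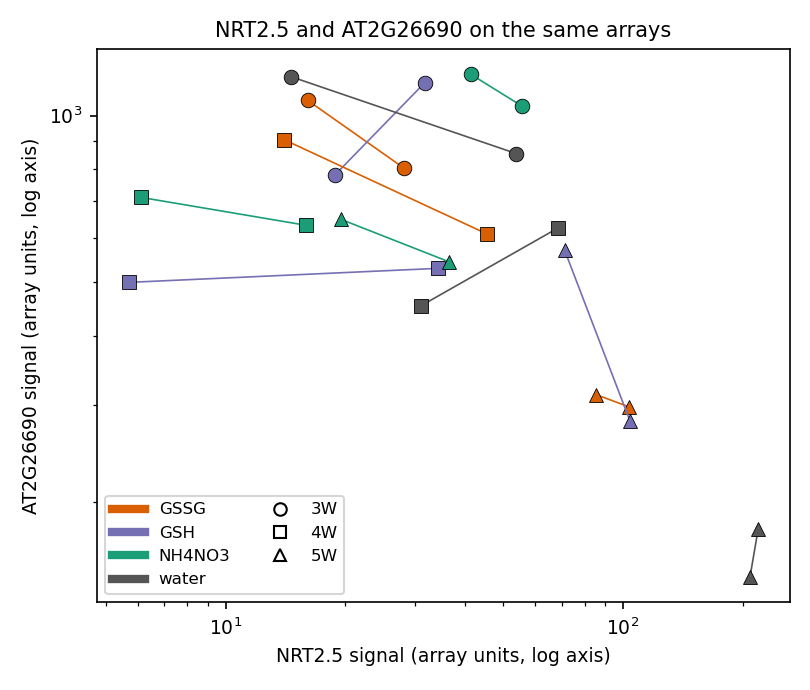
Signal of AT2G26690 against that of NRT2.5 on the same array, both on log axes in array units, with colours for the waterings, symbols for the harvests and a line joining the 2 arrays of a group. The 5W water arrays are alone at the lower right (NRT2.5 at 218.9 and 208.6), and the 5W GSSG arrays and 5W GSH replicate 2 lie between them and the rest.

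Among 8735 probe sets with 1 gene and enough signal, those whose group means ran most like NRT2.5 were AT1G21050 (r = 0.957 over 12 groups and 0.954 over the 8 leaf groups), AT1G57540 (0.944 and 0.948), AME3 (AT4G32660, a protein kinase gene, 0.911 and 0.97), AT3G57680 (0.911 and 0.959) and AT5G20885 (0.908 and 0.958). Of these AT3G57680 was lower with NH4NO3 than with water at 5W, at 224 against 842 mean signal and a log2 change of -1.83 (adjusted p = 0.00913). The other 4 were not called there. Most opposite to NRT2.5 were AT5G03350 (r = -0.955 over 12 groups), AT2G43550 (-0.942) and AT5G45480 (-0.927). AT5G03350, a lectin-type gene, had mean signals of 5080 with NH4NO3 and 59.7 with water at 5W.

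Most like AT2G26690 were AT5G57460 (r = 0.98 over 12 groups and 0.966 over the 8 leaf groups), AT1G11940 (0.974 and 0.986), AT4G23820 (0.969 and 0.96), AT1G56720 (0.966 and 0.942) and AT5G22580 (0.961 and 0.934). The last 3 rose with NH4NO3 against water at 5W, by 2.43 (adjusted p = 0.00629), 2.00 (adjusted p = 0.00321) and 2.41 (adjusted p = 0.000595). The most opposite was ALN (AT4G04955, r = -0.972), which encodes allantoinase, the enzyme of purine breakdown that hydrolyses allantoin to allantoate. With NH4NO3 ALN fell by 1.76 (adjusted p = 0.00354), to a mean signal of 633 with NH4NO3 against 2180 with water. AT1G25520 (r = -0.966) and AT5G41560 (-0.961) followed. These likenesses were found on the same group means and carry no test.

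Among other nitrate transporters, 3 of 25 listed had a named probe set, the third being NPF2.3 (AT3G45680), known in roots as a nitrate exporter of the stele. NPF2.3 read 91.2 and 67.2 with GSSG, 57.6 and 83.8 with GSH, 90.8 and 66.6 with NH4NO3, and 149 and 93.0 with water at 5W. Its changes were -0.51, -0.65 and -0.51 (adjusted p = 0.858, 0.523 and 0.612). None of the 6 ammonium transporters or 22 nitrogen assimilation genes listed was measured under a name here.

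AT2G26690 was also set beside the 11 other NPF genes measured, a list added after the data were seen. None of the 11 was called against water with any solution at any harvest. At 5W their changes ran from -0.70 to 0.70 with GSSG (median 0.02), -0.78 to 0.80 with GSH (median -0.30) and -0.53 to 0.58 with NH4NO3 (median -0.12), and the lowest adjusted p was 0.523. The changes of AT2G26690 at 5W, 0.85, 1.23 and 1.78 in that order, lay above each of those ranges. That gene was chosen with earlier results known and the list was added later, so this position is no test. Family members without a named probe set here were not compared. Mean signals of the 11 at 5W with water ran from 27.6 (NPF4.5) to 1340 (NPF2.11), and the scale used understates changes of the dim ones. Whether the response is particular to AT2G26690 within the family was not tested. NPF6.4 (AT3G21670), of the same subfamily, read 704 and 227 with GSSG, 347 and 226 with GSH, 952 and 367 with NH4NO3, and 436 and 349 with water. Its replicates were far apart, and its changes were 0.04, -0.46 and 0.58. At 5W against 4W, 0 of the 11 were called in any watering. Between 4W blades and 3W shoots 2 were called with GSSG, 3 with GSH, 4 with NH4NO3 and 3 with water. These last counts stand beside 35.7%, 36.0%, 37.0% and 37.7% of all probe sets in that order and are no result about the family.

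Regulators of nitrogen use were measured for 6 of 20 listed. HHO1, HHO2 and HHO3 belong to a family of nitrate-induced repressors that act on NRT2 genes in Arabidopsis. CEPD1, CEPD2 and CEPDL2 encode glutaredoxin-like polypeptides that travel from shoots to roots and raise nitrate uptake when nitrogen is short. At 5W the numbers called were 1 higher and 0 lower with GSSG, 2 higher and 1 lower with GSH, and 2 higher and 1 lower with NH4NO3, beside 0.22%, 1.49% and 2.22% of all probe sets called in either direction. The median change of the 6 was -0.72 with GSSG, -1.24 with GSH and -1.07 with NH4NO3, beside -0.031, -0.017 and -0.05 over all probe sets tested. The list was chosen with earlier results of these data known, so neither the counts nor the medians are a test. Each median joins HHO2 and HHO3, whose changes were positive with every solution, with members whose changes were negative, called or not. The HHO2 change with GSSG, 0.76, was not called (adjusted p = 0.643).

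HHO3 (AT1G25550) read 354 and 533 with GSSG, 837 and 721 with GSH, 1350 and 1210 with NH4NO3, and 163 and 157 with water at 5W. By mean signal the order was NH4NO3, GSH, GSSG, water, as for AT2G26690 and HHO2 at that harvest. Each fed group of HHO3 lay wholly above water, as did 17.1% of all probe sets with GSSG, 20.2% with GSH and 17.4% with NH4NO3. Any link between HHO3 and AT2G26690 was not tested. HHO2 (AT1G68670) read 402 and 508 with GSSG, 878 and 718 with GSH, 1010 and 861 with NH4NO3, and 230 and 295 with water. CEPDL2 (AT3G62960) read 90.2 and 65.0 with GSSG, 44.9 and 73.1 with GSH, 19.3 and 59.4 with NH4NO3, and 238 and 337 with water. With NH4NO3 it fell by 2.54 (adjusted p = 0.0148), and its water arrays were above all fed arrays, as for NRT2.5. The same held at that harvest for CEPD1, CEPD2 and HHO1. Over all probe sets, the fed arrays lay wholly below water in 21.9% with GSSG, 22.8% with GSH and 24.4% with NH4NO3.

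CEPD1 (AT1G06830) fell by 1.33 with GSH at 5W (adjusted p = 0.0121) and by 1.46 with GSSG at 4W (adjusted p = 0.0473). CEPD2 (AT2G47880) was not called against water, with 1080 and 1030 with NH4NO3 and 2990 and 3510 with water at 5W (-1.60, adjusted p = 0.183). HHO1 (AT3G25790), dim throughout at 5W, had -1.07 with GSSG, -1.48 with GSH and -1.36 with NH4NO3 (adjusted p = 0.633, 0.119 and 0.142), opposite in sign to HHO2 and HHO3.

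From 4-week to 5-week blades of plants given water, HHO3 fell by 3.00 (adjusted p = 3.69e-07) and HHO2 (AT1G68670) by 1.77 (adjusted p = 0.00119), where AT2G26690 fell too. CEPD2 (AT2G47880) rose by 2.6 (adjusted p = 0.00522) and CEPDL2 (AT3G62960) by 1.83 (adjusted p = 0.0356), where NRT2.5 rose. CEPD2 also rose by 3.13 with GSSG (adjusted p = 0.00124), 2.1 with GSH (adjusted p = 0.0392) and 2.65 with NH4NO3 (adjusted p = 0.0163). The changes of NRT2.5 in those waterings were 1.36, 1.63 and 0.70 in that order, and none was called. Any link between the regulators and the 2 transporter genes was not tested. For HHO3 (AT1G25550) the test between harvests itself was passed: its NH4NO3 effect at 5W exceeded that at 4W by 3.06 (adjusted p = 0.000341) and its GSH effect by 2.38 (adjusted p = 0.00345).

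**Figure D5:**
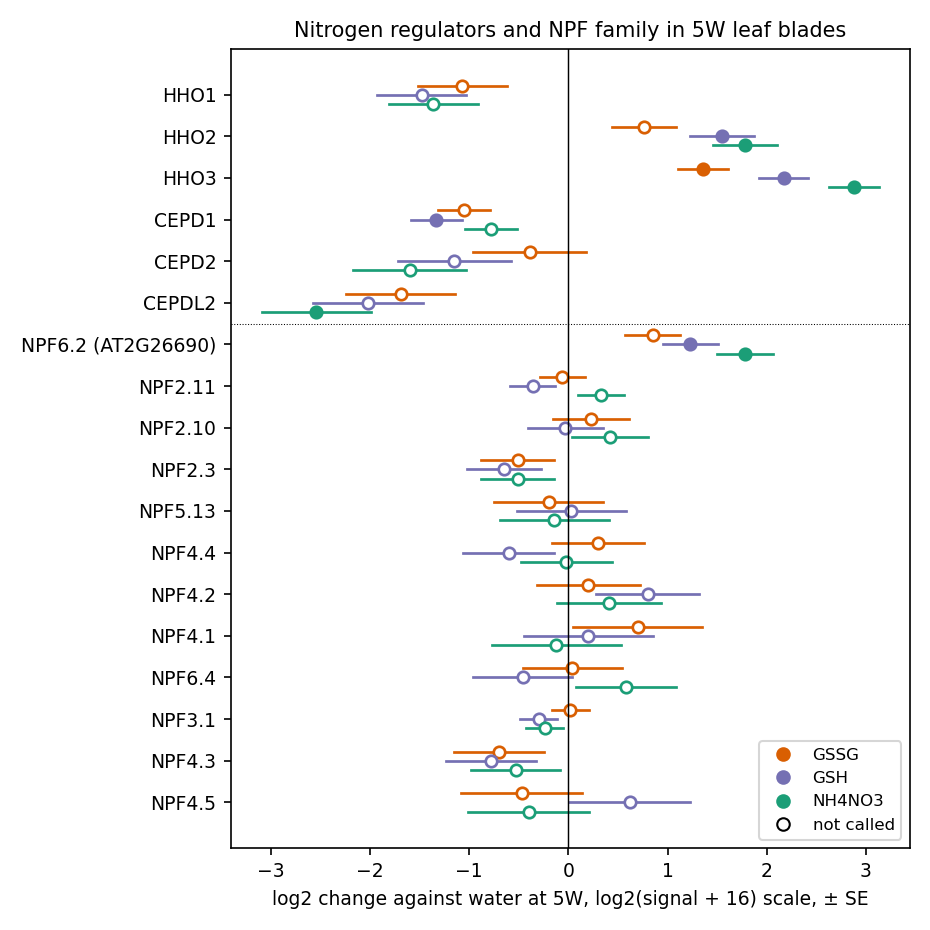
Log2 change against water in 5-week blades, ± SE, of the 6 nitrogen regulators measured (above the dotted line) and the 12 NPF genes (below it), with GSSG, GSH and NH4NO3 in order down the page within a gene; filled points were called. AT2G26690 (NPF6.2) is filled with GSH at 1.23 and with NH4NO3 at 1.78, and the 11 other NPF genes are open and lie between -0.78 and 0.80.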

How the data were processed

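Total RNA from each sample (100 ng) was amplified and biotin-labelled from the 3' end for 1 Affymetrix array, per the labels' protocols. The authors deposited linear intensities made with Affymetrix Expression Console, per the submitters' processing notes; for its version and summary algorithm, not given in the sources used here, nothing is assumed. The 2% trimmed mean of an array was 500.044 to 500.055, so no further scaling was applied. The number of arrays limits the precision.

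Groups and replicate numbers were taken from the sample titles. From the intensities log2(signal + 16) was computed, the 64 control probe sets were left out, and limma 3.58.1 in R 4.3.3 was fitted with 1 mean per group to all 24 arrays (12 residual degrees of freedom, 7.39 prior degrees of freedom with a trend in intensity). In each of 35 comparisons p-values were adjusted by the Benjamini-Hochberg method over 22746 probe sets and called under 0.05; intervals are 95%. The fit was tested on simulated data first. A ratio of mean signals is given only where both means reach 100.

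Names came from the platform annotation updated to RefSeq's TAIR10.1: 13513 probe sets had 1 gene, 503 several, and 8730 were unnamed here. Both genes and all gene lists were chosen with earlier results of these data known, and the NPF family list was added after the data were seen. Named besides are, for each gene, the 5 probe sets with the highest and the 3 with the lowest Pearson r over group means, among those with 1 gene and a highest group mean above the 40th percentile, and list members. Alternatives were quantile normalization, median centring, a filter on dim probe sets, pseudocounts of 1 and 64, other variance priors, a replicate block, fits to fewer arrays, and leaving out each array. Tables used pandas 2.3.3 and numpy 2.4.6, and plots matplotlib 3.10.9, in Python 3.11.15.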

Additional observations from a re-analysis of the deposited data

How the results depend on the processing

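With 2 arrays per group, a single array can decide a call, and the low signal of NRT2.5 makes its changes depend on the pseudocount. The called results were refitted under 94 combinations with all arrays kept and held in 80. Among them the 5W NH4NO3 change of AT2G26690 (1.54 to 1.87) and its 5W against 4W changes with GSSG (-1.31 to -1.13) and water (-1.71 to -1.40) held in all 10 settings each. In fits without 1 array, 20 of 48 calls held. The filter on dim probe sets leaves out NRT2.5, so it gave no value for that gene. The cause of the changes below was not tested.

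For AT2G26690 at 4W against 3W, the NH4NO3 change missed the threshold with quantile normalization (-0.713, adjusted p = 0.0507), median centring (-0.533), a pseudocount of 1 (-0.726) and a prior without trend (-0.714), and the GSH change missed it with median centring (-0.614). Median centring gave the 4W GSH change of AT2G26690 the opposite sign (0.0496). With a pseudocount of 1, NRT2.5 missed the threshold with NH4NO3 at 5W (-2.95) and for 5W against 4W with water (2.18), and its GSH effect at 5W minus that at 4W was 0.321, opposite in sign. With a pseudocount of 64, NRT2.5 passed for the NH4NO3 mean of harvests (-0.654, adjusted p = 0.0396), for 5W against 4W with GSSG (0.777) and GSH (0.866) and for the NH4NO3 effect at 5W minus that at 3W (-1.82, adjusted p = 0.0202), while AT2G26690 missed for the NH4NO3 mean (0.661, adjusted p = 0.0506). Without a trend in the prior, NRT2.5 passed at 4W against 3W with NH4NO3 (-1.27, adjusted p = 0.0455), and AT2G26690 missed with GSH at 5W (1.23, adjusted p = 0.0909) and for the NH4NO3 mean (0.75, adjusted p = 0.127).

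Fitted to leaf blade arrays alone, the 5W GSH change of AT2G26690 missed (1.23, adjusted p = 0.0759). With only the arrays compared it missed too (1.23, adjusted p = 0.271), as did NRT2.5 with NH4NO3 at 5W (-2.41) and for 5W against 4W with water (1.86, adjusted p = 0.0689), while the NH4NO3 effect on AT2G26690 at 5W minus that at 3W passed (1.63, adjusted p = 0.0452). At 5W the probe sets called with NH4NO3 numbered 504 in the reported fit, 1080 with the replicate block, 320 without trend, 285 in leaf blades alone and 227 with only the arrays compared; with GSH these were 338, 897, 161, 135 and 79, and with GSSG 50, 181, 14, 7 and 0.

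The replicate numbers are shared between groups, but with 2 numbers they do not show that arrays were paired. Deviations of same-numbered arrays correlated at 0.049 to 0.249 at 3W, 0.242 to 0.394 at 4W and 0.116 to 0.399 at 5W, over 13647 probe sets. With the number within each harvest as a replicate block, results that passed in addition were NRT2.5 for 5W against 4W with GSH (1.63, adjusted p = 0.0493), and AT2G26690 with GSSG at 5W (0.852, adjusted p = 0.0394), for GSSG against NH4NO3 at 5W (-0.928, adjusted p = 0.0371), for the effects at 5W minus those at 4W of GSH (1.28) and NH4NO3 (1.46, adjusted p = 0.0088), and for those at 5W minus 3W of GSH (1.31) and NH4NO3 (1.63, adjusted p = 0.00241). The block ended no call of either gene.

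Without 1 array, these ranges held a lost or gained call. For AT2G26690 they were 0.674 to 0.826 (NH4NO3 mean of harvests), 0.734 to 1.72 (GSH at 5W), -1.52 to -0.966 (5W against 4W, GSSG), -1.12 to -0.663, -1.14 to -0.589 and -0.809 to -0.619 (4W against 3W with water, GSH and NH4NO3) and 0.814 to 1.8 (GSH effect at 5W minus 3W). For NRT2.5 they were -2.69 to -2.13 (NH4NO3 at 5W), 1.44 to 2.29 (5W against 4W, water) and 1.03 to 2.24 (5W against 4W, GSH). The sign turned only in results that were not called. For NRT2.5 these were GSSG (-0.894 to 0.296), GSH (-0.778 to 0.412) and NH4NO3 (-0.123 to 1.07) against water at 3W, GSSG against GSH at 3W (-0.346 to 0.114), 4W (-0.225 to 0.986) and 5W (-0.125 to 0.337), GSH against NH4NO3 at 4W (-0.293 to 0.918), 4W against 3W with water (-0.148 to 1.04), GSSG (-0.326 to 0.709) and GSH (-0.910 to 0.300), and the effects at 5W minus 4W of GSSG (-1.02 to 0.0126) and GSH (-0.835 to 0.375). For AT2G26690 they were GSSG (-0.340 to 0.114), GSH (-0.353 to 0.194) and NH4NO3 (-0.0806 to 0.374) against water at 3W, GSH at 4W (-0.278 to 0.177), GSSG against GSH at 3W (-0.306 to 0.240) and 5W (-0.872 to 0.118), GSH against NH4NO3 at 3W (-0.500 to 0.0467), GSSG against NH4NO3 at 4W (-0.133 to 0.422) and 5W against 4W with GSH (-0.842 to 0.147).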
